A study of Drosophila melanogaster with 3 samples.

Results

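The genes described here are 8 regulators of the head-to-tail axis of the Drosophila embryo: the maternal coordinate genes bcd (bicoid) and cad (caudal), the trunk gap genes hb (hunchback), gt (giant), Kr (Krüppel) and kni (knirps), and the terminal gap genes tll (tailless) and hkb (huckebein). They are 8 of 13945 protein-coding genes on 6 chromosome arms, and for each gene every region was taken whose summit lay in the gene span or in the 10 kb on either side. These windows held 4 of the 3586 reproducible peaks and 45 of the 30000 pooled regions, and 39, 44 and 53 of the 30000 regions in the lists of replicates 1, 2 and 3. The data are from chromatin immunoprecipitation and sequencing (ChIP-seq) with an anti-GFP antibody on whole embryos of both sexes, 0 to 24 h old, from a transgenic line in which Schnurri (shn) carries GFP at its C-terminus. The 3 samples are biological replicates of that 1 line, and no second condition was compared. The authors also used a control when calling peaks, according to their notes, which was not analysed here. All samples carry the tagged protein, so the lists hold no untagged group.

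Segmentation begins with maternal products. Bicoid, a homeodomain protein made from mRNA held at the anterior pole, and Caudal, a homeodomain protein that forms a posterior gradient, set up position along the egg, and the gap genes read these gradients in broad domains of the early blastoderm. The gap genes encode transcription factors, mostly zinc finger proteins, that repress each other and drive the pair-rule genes. Schnurri is a large zinc finger protein that acts with the Smads Mad and Medea in Dpp signalling, which patterns the other, dorsal-ventral axis. Because whole embryos of all stages were pooled, a site bound in few cells or for a short time cannot be told apart from one bound weakly in many.

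Each region carries a signal value from the authors' peak calling, and it is ranked here by that value within its own list, with 1 the strongest. The reproducible peaks are those the authors kept by the irreproducible discovery rate (IDR) procedure. Their pooled signal runs from 91.6 to 2020 with a median of 142, and they are the first 3586 ranks of the pooled list. In each replicate the first 3586 ranks are called the top list. The deposited −log10 q value is also given, and a q of 0.01 corresponds to 2 on that scale. Signals are compared only within a list.

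Reproducible peaks lay in the windows of the 2 maternal coordinate genes and of none of the 6 gap genes. That is 2 of 8 members, or 25.0%, against 57.7% of all protein-coding genes. By position the peaks were at the bcd promoter, in a cad intron, and at the neighbours Ama and Pomp. Sequences of 201 bp centred on summits are printed first for these 4 reproducible peaks, then for 2 weaker regions, at kni and tll. Each is from the Release 6 assembly (dm6) and is written 5′ to 3′ in the direction of the nearest gene. Capitals mark matches, on either strand, to short motifs: TAATCC (Bicoid), TTTTTT (Hunchback), TTTATG (Caudal), CAGGTA (Zelda), GAGAG (GAGA factor), TATCGATA (DRE), GGTCACACT (motif 1), GTCTG (Smad), GCCGNCGC (Mad), AAGTCA (Tailless), AANGGGTTA (Krüppel) and TTACGTAA (bZIP proteins of the Giant type). The longer silencer element bound by a Mad, Medea and Schnurri complex was searched too. Adjoining matches run together in the capitals.

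The first sequence is the bcd promoter peak, the strongest of the 45 regions, at chr3R:6759559-6759759 on the minus strand.
bcd promoter: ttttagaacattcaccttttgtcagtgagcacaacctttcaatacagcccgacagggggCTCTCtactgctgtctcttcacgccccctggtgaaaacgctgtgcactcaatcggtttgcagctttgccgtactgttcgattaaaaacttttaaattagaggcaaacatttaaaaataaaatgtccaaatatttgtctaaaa
The second lies between 2 annotated starts of Ama, the neighbour of bcd, at chr3R:6763012-6763212 on the plus strand.
Ama: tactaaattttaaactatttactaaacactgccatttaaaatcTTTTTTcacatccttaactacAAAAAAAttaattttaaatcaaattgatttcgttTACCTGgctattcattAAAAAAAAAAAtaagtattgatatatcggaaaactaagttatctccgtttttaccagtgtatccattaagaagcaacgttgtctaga
The third lies in an intron of cad, at chr2L:20780888-20781088 on the plus strand, which is the direction of both cad and the nearest start, that of Pomp.
cad intron: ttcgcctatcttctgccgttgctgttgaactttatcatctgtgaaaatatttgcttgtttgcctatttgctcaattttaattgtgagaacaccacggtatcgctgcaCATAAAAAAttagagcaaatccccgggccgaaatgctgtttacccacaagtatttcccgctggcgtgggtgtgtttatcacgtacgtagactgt
The fourth lies before Pomp, the neighbour of cad, at chr2L:20787394-20787594 on the plus strand.
Pomp promoter: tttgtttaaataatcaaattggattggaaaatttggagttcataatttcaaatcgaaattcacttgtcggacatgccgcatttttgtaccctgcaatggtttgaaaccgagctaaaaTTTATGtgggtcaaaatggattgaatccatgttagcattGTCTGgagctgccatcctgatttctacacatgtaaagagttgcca

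The strongest region at kni lies before the gene, at chr3L:20697082-20697282 on the minus strand, and is shown for its pair of Bicoid letters.
kni upstream: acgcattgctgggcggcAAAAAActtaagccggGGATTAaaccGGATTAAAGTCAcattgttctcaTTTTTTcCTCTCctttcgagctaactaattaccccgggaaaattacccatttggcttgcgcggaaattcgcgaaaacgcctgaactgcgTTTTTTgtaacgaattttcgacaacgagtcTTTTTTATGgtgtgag
The region nearest to the tll start, at chr3R:30851968-30852168 on the plus strand, is shown because it is the strongest there and lies in the promoter.
tll promoter: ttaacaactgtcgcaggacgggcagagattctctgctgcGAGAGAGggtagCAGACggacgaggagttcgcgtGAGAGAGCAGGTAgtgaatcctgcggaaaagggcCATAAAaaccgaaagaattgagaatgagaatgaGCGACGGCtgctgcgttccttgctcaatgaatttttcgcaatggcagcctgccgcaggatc

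At bcd (FBgn0000166, 3R from 6755842 to 6759466, minus strand) the summit lay 193 bp upstream of the 1 annotated transcription start site (TSS), at position 6759659 in intergenic sequence. Its pooled signal was 236 with a −log10 q of 3.76, and it ranked 730 of the pooled list. In replicates 1, 2 and 3 the matching region ranked 1057, 770 and 655, with −log10 q values of 3.52, 3.64 and 3.66. The 3 replicates placed the summit within 3 bp of the pooled one, so the position was shared as well as the rank. It was the 1 reproducible peak at the 8 genes that all 3 top lists held, against 53.8% of all reproducible peaks. At gene level, 20.9% of protein-coding genes had a region of that pooled rank or better in their own window.

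The other reproducible peak in the bcd window belonged by position to Ama (Amalgam), which encodes a secreted immunoglobulin-domain protein and lies beside bcd in the Antennapedia complex. Its pooled summit at 6763112, in the body of Ama and 3646 bp upstream of the bcd TSS, had a signal of 101 and ranked 3087. The matching regions ranked 4059, 3269 and 2820 in replicates 1, 2 and 3, so it missed the top list of replicate 1, where its −log10 q was 0.94, against 3.34 and 3.27 in replicates 2 and 3. Replicate 1 had 1 region there, with its summit 13 bp from the pooled one. Replicates 2 and 3 had 2 each, the stronger in the 5′ UTR of Ama, 155 and 205 bp from the pooled summit, and the other in the intron, 48 bp away at rank 5149 in replicate 2 and 3 bp away at rank 4414 in replicate 3. The intron position was thus shared by all 3 lists, below the top list in each. Across the remaining 7 pooled regions of the bcd window, signal ran from 27.4 to 43.3. One of these lay 248 bp upstream of zen (zerknüllt), a homeobox gene of the dorsal-most cells whose late pattern depends on Dpp. It ranked 15621 in the pooled list, 23750 in replicate 1 and 20142 in replicate 3, and replicate 2 had no match.

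At cad (FBgn0000251, 2L from 20770731 to 20783135, plus strand) the stronger reproducible peak was in an intron, 10094 bp downstream of the nearer of its 2 TSSs, at position 20780988. Its pooled signal was 113.5 at rank 2588. The replicates split, with rank 1170 in replicate 3, rank 4711 in replicate 2 and no matching region in replicate 1. Its −log10 q was 2.41 in replicate 2 and 3.66 in replicate 3. Where it was found its position was stable, with replicate summits 0 and 1 bp from the pooled one. The other reproducible peak lay 162 bp upstream of Pomp, which encodes a proteasome maturation protein, at position 20787494 and 4359 bp beyond the end of cad. It ranked 2887 in the pooled list with a signal of 106, and ranked 1853, 8524 and 2692 in replicates 1, 2 and 3, with −log10 q values of 2.53, 0.98 and 3.25. Replicate 2 was thus the weak one at Pomp and replicate 1 the one without the intron peak. Neither cad peak was held by every top list. The remaining 11 pooled regions of the window had signals from 27.9 to 46.3.

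The cad promoter itself had a region of note in 1 replicate. In replicate 3 a summit 150 bp upstream of the first cad TSS had a signal of 40.4, a −log10 q of 3.19 and rank 3870, just outside the top list. The matching pooled region, 146 bp upstream, ranked 23406 with a signal of 31.1, and neither replicate 1 nor replicate 2 had a match. Read depth is unknown, so the larger number of regions past a −log10 q of 2 in replicate 3 (7213, against 2385 in replicate 1 and 5289 in replicate 2) stands beside this value, and its part in it was not tested.

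**Figure D1:**
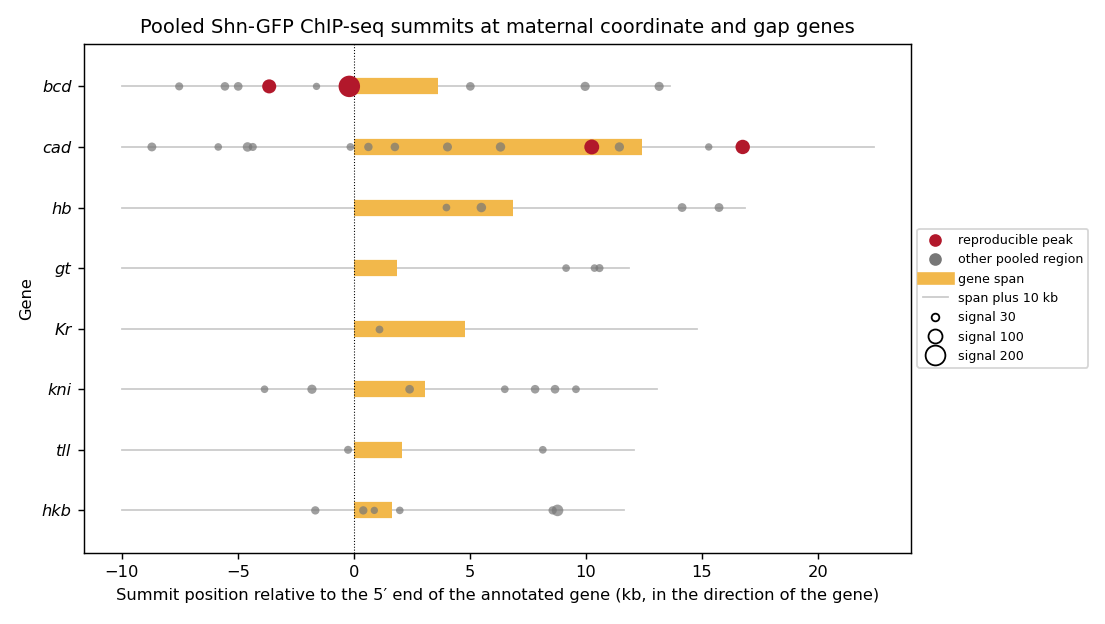
Position of the pooled Shn-GFP summits at the 8 genes, in kb from the 5′ end of each annotated gene and in the direction of the gene; dot area is the pooled signal, red dots are reproducible peaks and grey dots the other pooled regions. The 4 red dots lie in the windows of bcd and cad, with the largest 193 bp upstream of bcd. The 6 gap genes have grey dots only.

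The trunk gap genes had only weak regions. hb (FBgn0001180, 3R from 8690980 to 8697822) encodes a zinc finger protein supplied by the mother and made again in the zygote, and its strongest pooled region lay in its own coding sequence, 2276 bp downstream of the nearer TSS, with a signal of 46.3 and rank 10761. That region ranked 22069, 7324 and 23280 in replicates 1, 2 and 3, and it was the only pooled region at the 6 gap genes that all 3 replicates matched. At the first of its 2 starts, 409 bp downstream of it in replicate 1 and 368 bp downstream in replicate 3, regions of rank 23424 and 29611 in the 5′ UTR overlapped, but the pooled list had none there. gt (FBgn0001150, X from 2427113 to 2428967), a bZIP repressor gene, had 3 pooled regions 9151 to 10590 bp downstream of its TSS, and the best ranked 20486, with a match in replicate 3 alone at rank 15497. Its nearest start is that of CG12496, 7476 bp away. Replicate 2 alone had a region in the gt coding sequence, at rank 10721, and replicate 1 had no region in the window at all.

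Kr (FBgn0001325, 2R from 25226611 to 25231394), which encodes a zinc finger repressor of the central trunk and lies inside the long gene CG9380, had 1 pooled region, the fewest of the 8 genes. It lay in the Kr coding sequence, 1068 bp downstream of the TSS, with a signal of 31.1 and rank 23396. Replicate 1 had no region in the window, while replicates 2 and 3 had 6 each, of which 2 overlapped between them. The strongest of these, 55 bp downstream of the TSS in the 5′ UTR, ranked 7439 in replicate 3 and had no match in the other replicates or in the pooled list. kni (FBgn0001320, 3L from 20692330 to 20695378), a gene of the nuclear receptor type, had 7 pooled regions with signals of 29.8 to 43.6. The best, 1804 bp upstream of the gene at rank 12127, ranked 12374 in replicate 1 and 22171 in replicate 3 and had no match in replicate 2. A region in the kni coding sequence ranked 7147 in replicate 3 with a −log10 q of 2.04, but 17946 in replicate 2, and replicate 1 had no match.

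The terminal gap genes, which respond to Torso signalling at the poles, showed the same pattern of low ranks at the genes themselves. tll (FBgn0003720, 3R from 30852315 to 30854400) encodes an orphan nuclear receptor, and its strongest pooled region lay 247 bp upstream of the TSS, with a signal of 32.9 and rank 20947. It was matched in replicate 3 alone, at rank 15351. hkb (FBgn0261434, 3R from 4345015 to 4346646) encodes an Sp1-type zinc finger protein, and its window had the best rank of the 6 gap genes, 5416 with a signal of 69.2, but that summit lay in the 5′ UTR of CG1103, 87 bp before the nearer of its 2 starts, and 8781 bp downstream of the hkb TSS. The CG1103 region ranked 3566 in replicate 2, inside the top list, and 4533 in replicate 3, and had no match in replicate 1. At hkb itself the strongest pooled region was in the coding sequence, 408 bp downstream of the TSS, at rank 17830. It was matched in replicate 1, where 2 regions overlapped it at ranks 6245 and 7394, and in neither of the others.

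**Figure D2:**
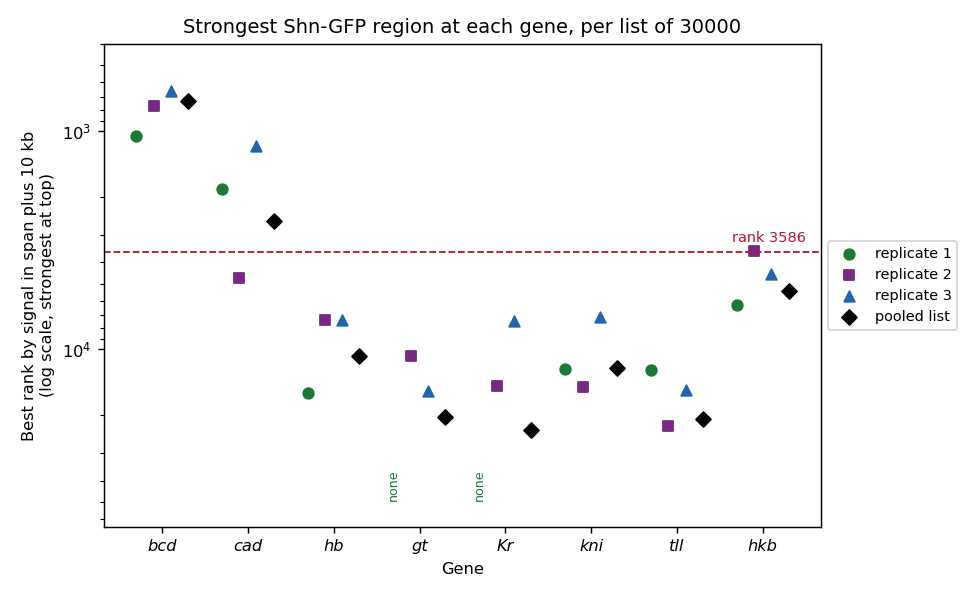
Best rank by signal among the regions in each gene's span plus 10 kb, in the 3 replicate lists and the pooled list of 30000 regions each, on a log axis with the strongest at the top; the dashed line marks rank 3586 and "none" marks a list with no region. bcd is above the line in all 4 lists, while hb, gt, Kr, kni and tll are below it in every list that has a region.

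Counted together, the 6 gap genes had 23 pooled regions with signals from 27.6 to 69.2 and none with a −log10 q of 2 or more. All 3 replicates matched 1 of the 23, 2 replicates matched 11, 1 replicate matched 10, and no replicate matched 1. Of all pooled regions outside the reproducible list, 21.5% were matched by all 3 replicates. The 23 ranked from 5416 to 28886, and the 21.5% was not taken over the same ranks. At gt and at hkb, some pooled regions shared a replicate match. At bcd and cad all 3 replicates matched 7 of 22, a set that includes the 4 reproducible peaks. That count is therefore not on the same footing as the 21.5% or the gap gene regions. From the replicate lists, 65 regions lay at the gap genes, 15 in replicate 1, 23 in replicate 2 and 27 in replicate 3, and 32 of the 65 (49.2%) overlapped no region of another replicate, against 38.4% of all regions in the 3 lists. Those with a −log10 q of 2 or more numbered 0, 1 and 2 in replicates 1, 2 and 3, where 7.95%, 17.6% and 24.0% of all regions passed it. Of the 23 pooled summits 15 were intergenic, and 6 lay in the coding sequence of the gap gene itself.

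Set against all genes, the members' share with a reproducible summit in the window was low. It was 2 of 8 members, or 25.0%, against 57.7% of all protein-coding genes. The median window was 23337 bp for the members and 22166 bp for all genes. The share was 34.6% of all genes with 0 to 2 other genes in the window, the class of cad, hb, gt, Kr, kni and tll. How far the member count goes with this was not tested. With a 20 kb flank it was 5 of 8 members, against 73.4% of all genes. A reproducible summit within 1 kb of the gene's own TSS was found at 1 of 8 members, or 12.5%, against 21.1% of all genes. All 8 had a pooled region in the window, as did 95.8% of all genes, with a median of 5 regions per window for the members, against 8 for all genes. The median best pooled rank was 11444 for the members, against 2490.5 for all genes with a pooled region. With 8 genes and no test over genes, these shares are a description.

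Replicate by replicate the picture was similar. Top-list regions lay in the windows of 2 of 8 members in each replicate. These were bcd and cad in replicates 1 and 3, and bcd and hkb in replicate 2. The shares of all genes were 57.3%, 57.3% and 56.1% in replicates 1, 2 and 3. In replicate 1 the region in the cad window was the one before Pomp, at rank 1853. In replicate 2 the region in the hkb window was the one in CG1103, at rank 3566. Top-list summits per 100 kb numbered 1.53 ± 0.509 inside the member windows and 2.68 ± 0.000748 outside them (SD, n = 3 replicates). Top lists of equal length nearly fix the outside value, so its SD does not measure replicate spread. The difference of −1.15 ± 0.510 was negative in 3 of 3 replicates (exact test over all sign flips, two-sided, p = 0.25), and since 0.25 is the smallest p that 3 replicates can give, the test could not pass 0.05. The direction depended on the flank: with 5 kb replicate 3 was higher inside, and with 20 kb replicate 2 was, with mean differences of −0.386 and −0.0590 (p = 0.5 for each by the same exact test). Counting all 30000 regions in place of the top list, the density inside was 19.9, 22.4 and 27.0 per 100 kb in replicates 1, 2 and 3. Outside it was 22.4 in each, again nearly fixed by the list length, and the direction differed between replicates.

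Regions of any rank were counted at the members' own promoters, with the bcd peak among them. Within 1 kb of an own TSS, 5 of 8 members had a pooled region, against 62.7% of all genes. The replicate lists had one at 5 members in replicate 1 (52.9% of all genes), at 4 in replicate 2 (61.8%) and at 6 in replicate 3 (62.9%). All 3 replicate lists had one at bcd, cad and hb, which is 3 of 8, against 36.2% of all genes. At cad and hb they were not 1 place. At cad, replicates 1 and 2 had overlapping regions in the coding sequence, 692 and 386 bp downstream of the nearer TSS, and replicate 3 had the region 150 bp upstream. At hb, replicate 2 had regions 795 and 212 bp downstream of the second of the 2 starts only, replicate 3 had regions near the first only, and replicate 1 had one at each.

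**Figure D3:**
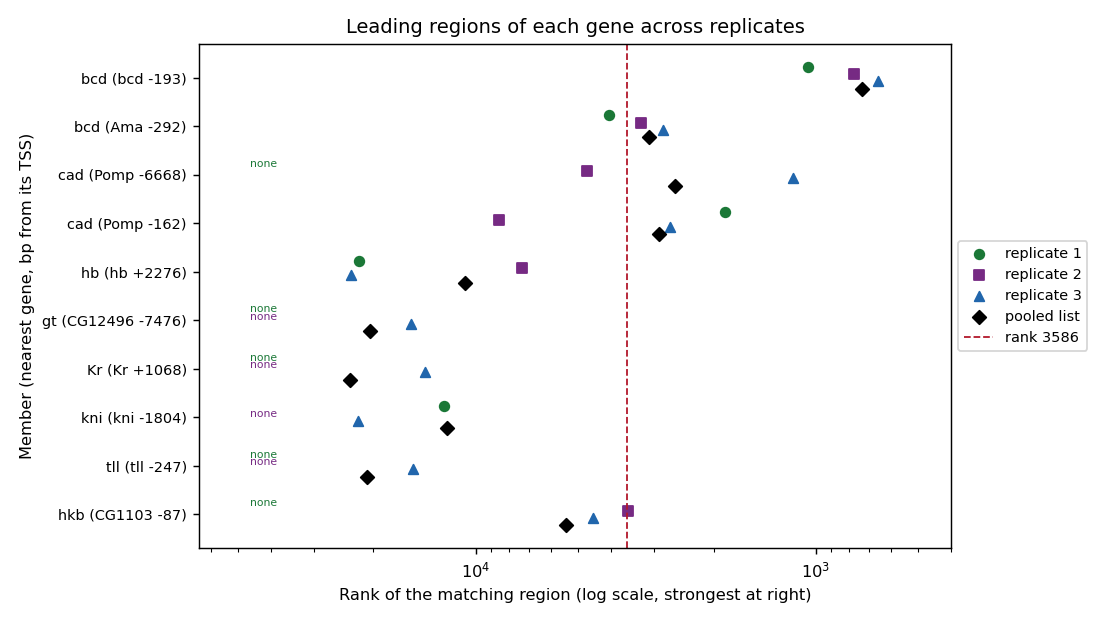
Ranks in the 3 replicates and the pooled list of each gene's reproducible peaks, or of its strongest pooled region where it had none, on a log axis with the strongest at the right; the nearest gene and the distance in bp from its TSS are in brackets, and the dashed line marks rank 3586. The bcd promoter peak is right of the line in every list, the cad intron peak has no match in replicate 1, and the leading regions at gt, Kr and tll have a match in replicate 3 only.

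By position, intergenic summits were the largest class of pooled regions in these windows. In the member windows 53.3% of pooled summits were intergenic (24 of 45, Wilson 95% interval 39.1 to 67.1), against 27.5% elsewhere, and 11.1% were in gene bodies outside exons (4.84 to 23.5), against 38.4%. Coding sequence held 28.9% (17.7 to 43.4), an interval that includes the 23.8% elsewhere. Some of these summits lay in the neighbours Ama, dia and CG1103 and not in a member. Within 1 kb of any TSS lay 26.7% (16.0 to 41.0), against 39.5%. The intervals cover counting error over regions only, and regions of 1 window are not independent. Few other genes lie near these genes: a median of 1 other protein-coding gene had a TSS in the window, against 5 for all genes.

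Beyond the windows, the nearest reproducible peak lay from 10850 to 97590 bp from the gene. The nearest to hkb was 10850 bp from the gene, 94 bp upstream of CG9776, at rank 1074. The nearest to hb was 14273 bp away, 94 bp upstream of Unc50, at rank 2006. At kni it was 16215 bp away, 2507 bp upstream of CG34260, at rank 1471. tll, Kr and gt were farther from any, at 33500, 59261 and 97590 bp, and the next one out from bcd lay 59333 bp away. At cad it was 11446 bp away, 1015 bp upstream of dia, at rank 2401. Inside the windows, the reproducible peak farthest from its gene was the Pomp promoter peak at 4359 bp, so none lay between 5 and 10 kb. Of the 8 nearest outside peaks, those at hb, hkb, Kr and tll were within 1 kb of a TSS of another gene and those at the other 4 were not.

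Each motif was counted at the 4 reproducible peaks, beside its share of all reproducible summits. None of the 4 held the Bicoid letters, which were within 100 bp of 5.86% of all reproducible summits. Hunchback letters, a run of T or A, were at 2 of 4 (Ama and the cad intron), against 41.5% of all reproducible summits, and Caudal letters at 2 of 4 (the cad intron and Pomp), against 20.1%. In the cad intron the Caudal and Hunchback matches overlap. The Zelda letters were at Ama alone (4.24% of all), GAGA at the bcd promoter alone (24.4%), and the Smad letters at Pomp alone (19.8%). No reproducible peak at these genes held DRE (5.19%), motif 1 (2.40%), the Mad letters (2.01%) or the silencer element (0.139%). The Tailless (9.62%), Krüppel (0.753%) and Giant-type (0.558%) letters were also at none of them. These are counts of letters in 201 bp and not of binding sites.

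Among the weaker regions the kni upstream sequence held 2 matches to the Bicoid letters, 57 and 67 bp upstream of its summit, 4 runs of the Hunchback letters, and 1 match each for Caudal, GAGA and Tailless. The tll promoter held the Zelda, GAGA, Caudal, Smad and Mad letters, and the Mad letters were at none of the other 9 leading regions. By signal both regions were far below the reproducible peaks, at ranks 12127 and 20947. Among the pooled regions outside the reproducible list, 5.50% held the Bicoid letters and 5.27% the Mad letters. For the other letters named here the shares were 26.1% (Smad), 25.2% (GAGA), 24.6% (Hunchback), 15.5% (Caudal), 8.96% (Tailless) and 5.13% (Zelda). The base composition differed too, with 24.9% GC at Ama, 36.3% at Pomp, 40.3% at the bcd promoter and 42.8% in the cad intron, and a median of 38.1% over all reproducible summits. The leading region in the hb coding sequence had 60.2% GC and held none of the motifs. Of the other gap gene windows, the leading region at gt held the Hunchback, Smad and Tailless letters. That in CG1103, in the hkb window, held the Hunchback, Caudal and Zelda letters, and that at Kr held GAGA. The Bicoid and Mad letters were each at 1 of the 10 leading regions.

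Several other genes of the anterior-posterior system had Schnurri peaks at their promoters, though no test of a difference from the 8 genes was made. Of 28 listed genes, 10 had a reproducible summit within 1 kb of an own TSS (35.7%, against 21.1% of all protein-coding genes). In the span plus 10 kb, 21 had one (75.0%, against 57.7%). Some of the 28 are long, such as pum (3R from 9066343 to 9237682), with 7 such summits, and nub (2L from 12587625 to 12628135), with none. The median window over all genes was 22166 bp. Window length was not matched, and its part in this share was not tested. By role the 10 with a promoter peak were 4 of 9 maternal genes and early activators, 5 of 8 terminal genes, 1 of 7 head gap genes and 0 of 4 trunk co-factors. With a summit in the span plus 10 kb the counts were 7 of 9, 7 of 8, 6 of 7 and 1 of 4, in the same order. The strongest promoter peak was at gro (groucho), the co-repressor used by Capicua and Huckebein. Its summit, 100 bp upstream of a TSS, had a pooled signal of 556 at rank 104, and ranked 72, 134 and 137 in replicates 1, 2 and 3. cic (capicua), the repressor of tll and hkb that Torso signalling relieves, had a peak 569 bp downstream at rank 522, in the 5′ UTR, with replicate ranks of 653, 520 and 504. fkh (fork head), a factor of the gut ends, had one 241 bp upstream at rank 589, with replicate ranks of 3521, 504 and 264.

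Of the remaining 7, cnc, a bZIP gene of the head, ranked 1305 and swa (swallow), needed to place bcd mRNA, ranked 1140. These 2, with gro, cic and fkh, are the 5 of the 10 with a peak that each replicate's top list held. tsl, which encodes a terminal cue from the follicle cells, ranked 1955. nos (nanos), the translational repressor of maternal hb mRNA, ranked 1888, pum (pumilio), its partner, 2912, exu (exuperantia), an RNA localisation gene, 3316, and fs(1)N, a terminal gene, 3459. At 4 of the 10 the summit was nearer to a TSS of another gene: Marf at swa, CG11779 at nos, galla-1 at exu and DAAM at fs(1)N. By position these 4 peaks could be given to the neighbour, and swa, nos and exu are among the maternal genes counted above. The number of such genes depended on the replicates and was 5 or 6 when a peak had to be in the top lists of 2 replicates, against 13.1 to 15.2% of all genes under the same condition.

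**Figure D4:**
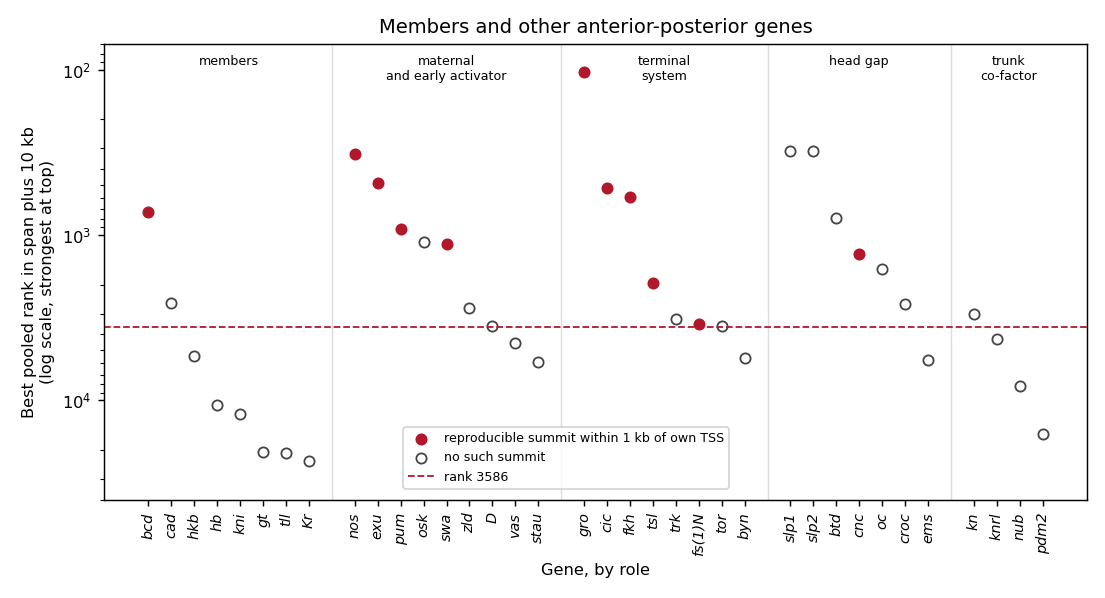
Best pooled rank in the span plus 10 kb for the 8 genes described here and 28 other anterior-posterior genes, grouped by role, on a log axis with the strongest at the top; filled dots mark a reproducible summit no more than 1 kb from an own TSS, which need not be the best-ranked region. The 6 gap genes lie below the dashed line at rank 3586, while gro reaches rank 104.

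By best rank over the 3 replicate lists, the genes most like bcd were its neighbours Ama and zen, whose windows hold the same peak. Apart from that locus the closest of 12393 genes with a region in every replicate were EMRE and pAbp, which share 1 peak, at best ranks of 1025, 755 and 678 in replicates 1, 2 and 3 and a Euclidean distance of 0.0218 in log10 rank. The likeness rests on 3 values per gene.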

How the data were processed

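Whole embryos were assayed by anti-GFP ChIP-seq in 3 biological replicates, and chromatin was sonicated to 200 to 800 bp, per the labels. The authors deposited peak lists on dm6 with a signal value per region and a −log10 q value, per replicate, pooled, and thresholded by IDR. The peak caller and its version, and the threshold used for IDR, were not named in the labels or notes. The deposited dm3 lists were not used here. Depth is unknown, since the lists hold no read counts. Python 3.11.15 was used with numpy 2.4.6, pandas 2.3.3 and, for figures, matplotlib 3.10.9. Genes and 19607 TSSs came from Ensembl release 115 (BDGP6.54), and sequence from the NCBI Release 6 assembly; all regions lay within its arm lengths. nos is named nanos in that annotation. A match is an overlap of at least 1 bp, and the strongest overlapping region is taken. Coordinates are 1-based. Shares carry Wilson 95% intervals (scipy 1.17.1). The counting functions were tested on simulated data. The members, lists, motifs and the rule for named regions (up to 5 reproducible summits per gene, otherwise the strongest pooled one, with the genes nearest to them, the other anterior-posterior genes with a promoter peak, and the genes most like bcd) were chosen with earlier results of these data known. No test was made over genes or regions; alternatives varied the flank, the promoter distance, the top list, the signal threshold and the replicates.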

Additional observations from a re-analysis of the deposited data

How the results depend on the processing

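With a 5 kb flank 2 members had a reproducible summit, bcd and cad, as with 10 kb, against 44.0% of all genes. With a 20 kb flank 5 did (bcd, cad, hb, kni and hkb, with 11 summits in all, against 73.4% of all genes). With only reproducible peaks at or above the median signal, 1 member and 1 summit were left, at bcd (39.3% of all genes), and 5 of the 28 other anterior-posterior genes had a promoter peak (11.9% of all genes). Keeping only peaks in the top lists of 2 replicates, with each replicate left out in turn, gave 1 to 2 members with a summit in the window (41.6 to 46.2% of all genes), 1 to 2 summits and 5 to 6 other genes with a promoter peak (13.1 to 15.2% of all genes), and 1 to 2 summits in the remaining top lists. The bcd window kept a summit in every case, and the cad window had none without replicate 1 and without replicate 3. Without replicate 2, the summit kept in the cad window was the Pomp promoter peak, ranked 1853 and 2692 in replicates 1 and 3. The cad intron peak, at rank 4711 in replicate 2 and without a match in replicate 1, was not kept in any case. With a top list of 7172 regions, 2 member summits were in all 3 replicates. Pooled summits numbered 29 with a 5 kb flank, 84 with 20 kb and 4 with a −log10 q of 2 or more. The promoter-proximal share was 75.6% with a 5 kb distance, against 74.1% of all pooled regions, and 75.0% (3 of 4) with that q, against 62.0%. It was 22.2% with a 500 bp distance, against 27.3%, and 34.5 and 36.9% with 5 and 20 kb flanks, against 39.4%. The mean density difference was −0.386 with a 5 kb flank and −0.0590 with 20 kb, and in each 1 of 3 replicates turned positive. With a shorter and a longer top list it was −0.661 and −2.13, and −1.41 to −0.897 with a replicate left out. The count of 1 member with an own promoter peak, bcd, held under all 6 alternatives tried. The share of all genes with such a peak ran from 11.9% (signal at or above the median) to 38.2% (5 kb distance) over them. No paired analysis was possible because the 3 samples form 1 group. With unknown depth, a gene without a reproducible peak is one not detectable in these lists, and not one shown to be unbound.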

Other observations

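The share of genes with a reproducible Schnurri peak in the window differed with the number of other genes there, a comparison added after the values were seen. Among protein-coding genes with 0 to 2 other genes that have a TSS in the span plus 10 kb, 34.6% of 3022 had a reproducible summit there, against 58.0% of 5518 genes with 3 to 5, 71.6% of 4576 with 6 to 9 and 62.6% of 829 with 10 or more, so the share did not keep rising in the most crowded class. cad, hb, gt, Kr, kni and tll fall in the first class, where 1 of the 6 had a peak, and bcd and hkb in the second, where 1 of the 2 had one. How far the low count at the gap genes goes with this spacing was not tested.

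The genes named next were picked after their values were seen. The head gap genes slp1 and slp2, which encode fork head domain proteins and lie side by side, had no reproducible summit within 1 kb of their own TSSs, but both windows held the same peak of rank 312. The window of btd, a zinc finger gene of the head, held 3 reproducible peaks with a best rank of 786, and that of oc (orthodenticle), a homeobox gene driven by Bicoid, held 2 with a best rank of 1601. nub and pdm2, POU domain genes sometimes counted with the gap genes, had none, with best pooled ranks of 8215 and 16131.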
